A study of Mus musculus with 44 samples.

Results

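The genes described here are 7 genes that mark atrial heart muscle: Sln, Myl7, Myl4, Dkk3, Stard10, Mybphl and Nr2f2. They were chosen because earlier work on these arrays had found several of them to vary widely between left ventricle samples. Their values, and the calls of differences in them below, are therefore a description. Counts of members called stand beside the share of all probe sets called and are no test of the set. Every probe set whose gene symbol in the platform annotation is 1 of the 7 names was taken. That gave 11 probe sets of 22690 on the array, for 6 of the 7 genes, since no probe set carries the symbol Mybphl.

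Atrial and ventricular muscle cells build their contractile apparatus from different relatives of the same proteins. Myl7 and Myl4 encode the regulatory and the essential myosin light chain of the atrium, where the ventricle uses Myl2 and Myl3. Sln encodes sarcolipin, a small membrane protein that slows the calcium pump of the sarcoplasmic reticulum and in rodents is found mainly in the atria. Nr2f2 encodes COUP-TFII, a nuclear receptor that keeps atrial muscle from taking a ventricular form and is also made by venous endothelium. Dkk3 encodes a secreted glycoprotein of the dickkopf family, Stard10 a lipid transfer protein, and Mybphl a relative of cardiac myosin binding protein. In the adult left ventricle these genes are thought of as low or restricted to few cells.

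The arrays measured left ventricular RNA of 44 mice at 6 months of age, 1 array per mouse, in 4 groups. PKCε mice carry a constitutively active rabbit protein kinase C epsilon under the mouse Myh6 promoter on an FVB/N background, a promoter that is active in atrial as well as ventricular muscle. Control mice were nontransgenic FVB/N. Each line was given nonimmune mouse IgG (10 mice per line) or FG-3149 (12 mice per line), an antibody against connective tissue growth factor. Treatment began when mice were 3 months old and went on for 3 months, with 30 mg/kg of either agent given into the peritoneum 2 times a week. Females made up 7 of 10 FVB/N IgG, 6 of 12 FVB/N FG-3149, 5 of 10 PKCε IgG and 6 of 12 PKCε FG-3149 mice. The transgenic mice are 1 construct in 1 strain, and the labels name no separate founder lines. The question put to the arrays is what the transgene changes in the ventricle and whether the antibody alters it.

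Promoter sequences from RefSeq (GRCm38.p6) were matched for 5 of the 7 genes, namely Myl7, Myl4, Stard10, Nr2f2 and Mybphl. Those of Myl7 and Myl4 are shown because these light chain genes moved together on the arrays. Each runs from 250 bases before to 50 bases after the gene start, 5′ to 3′ on the strand of the gene. Myl7 lies on the minus strand at chr11:5898733-5899032 and Myl4 on the plus strand at chr11:104550413-104550712. Capitals mark matches to the motifs searched, which in Myl7 are a CArG box (the site of serum response factor) and a GATA site.
Myl7: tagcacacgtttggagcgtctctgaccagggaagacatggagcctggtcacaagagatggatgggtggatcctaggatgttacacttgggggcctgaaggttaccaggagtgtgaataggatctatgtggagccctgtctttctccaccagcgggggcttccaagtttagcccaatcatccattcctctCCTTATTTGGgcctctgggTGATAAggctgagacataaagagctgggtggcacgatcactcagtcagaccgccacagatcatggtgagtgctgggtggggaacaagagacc
Myl4: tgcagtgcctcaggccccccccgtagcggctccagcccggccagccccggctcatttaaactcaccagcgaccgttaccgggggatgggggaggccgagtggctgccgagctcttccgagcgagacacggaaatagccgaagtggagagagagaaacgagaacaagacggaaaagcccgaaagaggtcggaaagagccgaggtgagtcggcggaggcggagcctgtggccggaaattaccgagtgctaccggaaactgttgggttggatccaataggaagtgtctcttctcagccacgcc

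Both strands were searched for 6 motifs: the CArG box, the MEF2 site, GATA sites (AGATAA or its variant AGATAG, and TGATAA or its variant TGATAG), the sequence AGGTGT of T-box factors, the sequence AGGTCA of nuclear receptors, and the TATA box TATAAA. In Myl7 the CArG box began 61 bases and the GATA site 42 bases before the gene start. None of the 6 motifs was found in the Myl4 window, so the pair that moved together share no match among these letters. Stard10, Nr2f2 and Mybphl each held 1 GATA match and none of the other motifs. Of 32851 promoters of the same length, 1.63% held a CArG box and 29.8% a GATA match, so the GATA matches are common. The shares for the others were 3.19% (MEF2), 13.7% (AGGTGT), 16.3% (AGGTCA) and 13.6% (TATAAA).

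Each deposited value is the ratio of a probe set to its own median over the 44 arrays, and its log2 is used below. A value of 0 is therefore that probe set's middle array and 1 is a doubling. Levels cannot be compared between genes, and detection is unknown because no detection call or brightness was given. Differences were fitted for 22626 probe sets that are not array controls, and a probe set is called at an adjusted p under 0.05. Array medians ran from 0.954 to 1.03 as ratios. FVB/N FG-3149 replicate 11, labelled female, lay between the sexes in its sex-linked genes. Its Xist was -0.71, against -0.20 to 1.73 on the other 23 female arrays and at most -2.69 on male arrays. Its Eif2s3y, a gene of the Y chromosome, was 3.61, where male arrays had 4.43 to 5.19 and the remaining females 0.042 or less. Counts of members called by sex in comparisons that use it are given with and without it. The sizes of differences fitted in females alone, and the test of whether the transgene effect differed by sex, are given only with it.

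Sln, Myl7 and Myl4 had some of the widest ranges on the whole array. By SD over the 44 arrays, Myl7 ranked 1, Sln (1420884_at) ranked 2 and Myl4 (1422580_at) ranked 7 of 22626 probe sets, with SDs of 3.79, 3.76 and 3.14 against a median of 0.198 over all probe sets. Dkk3 followed at ranks 26 and 33 (SDs 1.88 and 1.68), Stard10 at rank 83 (1.21) and Nr2f2 at ranks 810, 2136 and 2723 (0.580, 0.396 and 0.363). These ranks describe the choice of genes and are not a test.

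The calcium pump regulator Sln (1420884_at) ran from -1.48 through a median of 4.99 to 8.82 in FVB/N IgG mice. In FVB/N FG-3149 mice it ran from -3.34 through -2.15 to 4.65. In PKCε IgG mice the lowest, median and highest log2 ratios were -2.19, 0.83 and 7.34, and in PKCε FG-3149 mice -3.06, -0.16 and 7.44. All 4 groups overlapped, and each had at least 1 array above 4 and at least 2 below -1. From the lowest array (FVB/N FG-3149 replicate 7) to the highest (FVB/N IgG replicate 2) Sln spanned a 4598-fold range.

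Myl7, the regulatory light chain, went from -1.41 through 5.29 to 8.94 in FVB/N IgG and from -3.52 through -1.49 to 4.43 in FVB/N FG-3149. Its PKCε IgG values were -2.29, -0.54 and 6.63, and its PKCε FG-3149 values -3.48, -1.02 and 7.16 (lowest, median, highest). The essential light chain Myl4 (1422580_at) ran from -0.997 through 4.43 to 7.65 in FVB/N IgG and from -2.22 through -1.36 to 4.13 in FVB/N FG-3149. In PKCε mice it ran from -1.21 through 0.54 to 6.61 under IgG and from -1.57 through -0.46 to 6.82 under FG-3149. Sln and Myl4 stood above 4 on 5 of the 10 FVB/N IgG arrays and Myl7 on 6, and all 3 did so on 1 or 2 arrays of each other group.

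**Figure D1:**
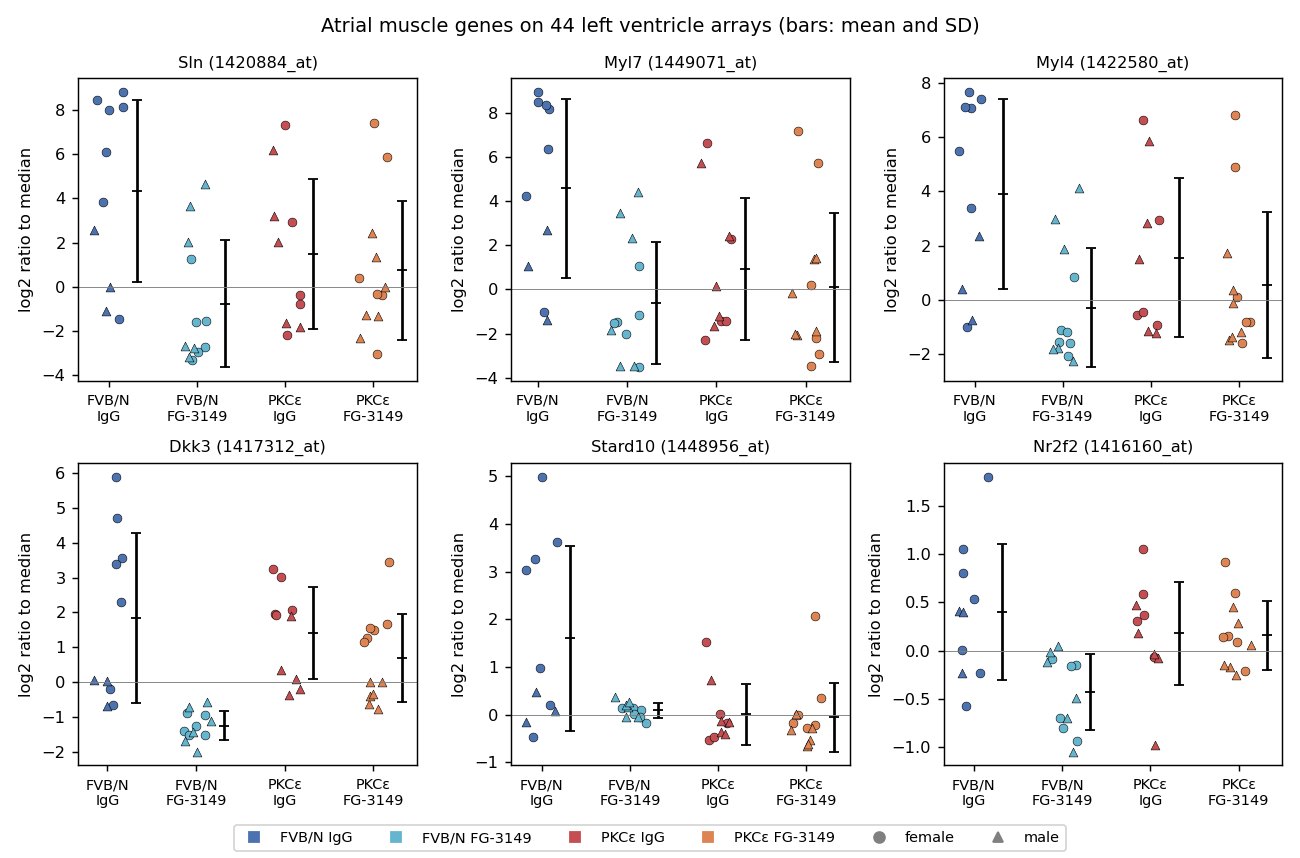
Log2 ratio of 6 genes at the probe set of largest SD (vertical axis) in the 4 groups (horizontal axis), 1 point per array, circles for females and triangles for males, with the mean and SD beside each group. Sln, Myl7 and Myl4 are spread from below -2 to above 7 with overlapping groups, and Dkk3 is below 0 on all 12 FVB/N FG-3149 arrays.

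Across the 44 arrays Sln, Myl7 and Myl4 varied together. The Pearson correlation of Sln (1420884_at) with Myl7 was 0.98 (Spearman 0.93), with Myl4 (1422580_at) 0.99 (0.98), and of Myl7 with Myl4 0.98 (0.94). The arrays share their groups and the per-gene scaling, so these are descriptions over 44 arrays with no p. Within each of the 4 groups all 3 correlations were at least 0.97. They were 0.97, 0.99 and 0.98 without the 2 arrays farthest from the median, FVB/N IgG replicates 2 and 3. On the 34 arrays of lower level defined below they were 0.92, 0.97 and 0.94, so the relation did not rest on the highest arrays.

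**Figure D2:**
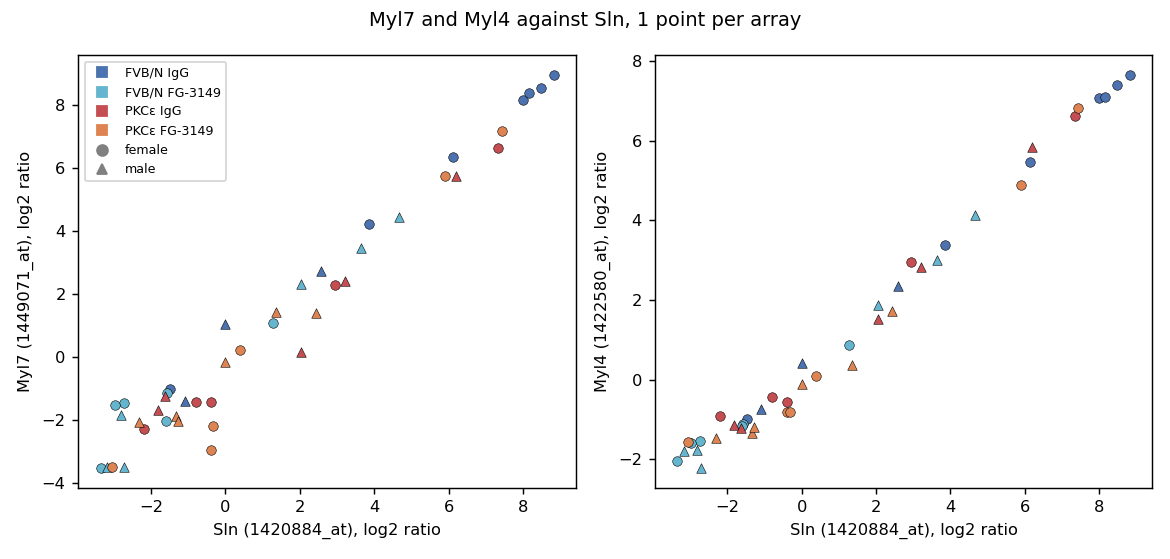
Log2 ratio of Myl7 (left) and Myl4 (right) against Sln, 1 point per array, coloured by group with circles for females and triangles for males. The points follow 1 line from the lowest to the highest array in every group, with Pearson correlations of 0.98 and 0.99.

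Averaging the log2 ratios of Sln, Myl7 and Myl4, each at its widest probe set, gives what is called the atrial level here. It ran from -2.97 (FVB/N FG-3149 replicate 7) to 8.47 (FVB/N IgG replicate 2), with a median of 0.072. It formed a continuum: with a threshold of 4, the lowest array above was FVB/N FG-3149 replicate 8 at 4.40 and the highest below was FVB/N IgG replicate 5 at 3.82. The 10 arrays above 4 were 5 of 10 in FVB/N IgG, 1 of 12 in FVB/N FG-3149, 2 of 10 in PKCε IgG and 2 of 12 in PKCε FG-3149. By sex they were 8 of 24 female and 2 of 20 male arrays. In FVB/N IgG they were 5 of 7 females (7.74, 8.47, 8.14, 7.87 and 5.99 in replicates 1, 2, 3, 4 and 9) and 0 of 3 males. Replicates 1 to 4 bear the mouse numbers 420, 421, 422 and 424. The other FVB/N IgG females stood at 3.82 and -1.16, and the males at -1.08, 0.486 and 2.55.

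Group means of the atrial level were 4.28 ± 3.89 (SD, n = 10) in FVB/N IgG, -0.55 ± 2.59 (n = 12) in FVB/N FG-3149, 1.32 ± 3.17 (n = 10) in PKCε IgG and 0.461 ± 3.05 (n = 12) in PKCε FG-3149. The SD within every group was larger than the difference between any pair of means other than those with FVB/N IgG. Of the variance of Sln, Myl7 and Myl4, 24.4%, 27.3% and 24.9% lay between the groups, close to the median of 23.9% over all probe sets. Most of the variation in these genes was thus between mice of the same group. In bulk tissue, more atrial muscle cells in a sample and more of this RNA per cell cannot be told apart.

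The remaining members followed the atrial level in part. Stard10 correlated with it at 0.77 over 44 arrays but at 0.15 over the 34 arrays at or below 4. Dkk3 (1417312_at) correlated at 0.72 and 0.22, and Nr2f2 (1416160_at) at 0.67 and 0.43. Stard10 lay between -0.65 and 0.47 on all 34 lower arrays and reached 4.99 on FVB/N IgG replicate 2. With groups and sexes pooled, the 3 narrower genes thus followed the atrial level less closely at or below 4. Within FVB/N FG-3149 mice, with 1 of 12 arrays above 4, the correlations were 0.57 for Stard10, 0.64 for Dkk3 (1417312_at) and 0.53 for Nr2f2 (1416160_at). The median correlation over the 15 pairs of the 6 genes, with group means subtracted, was 0.713. It was 0.261 without the 10 arrays above 4.

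Dkk3 and Nr2f2 also varied together. On the 34 lower arrays Dkk3 and Nr2f2 probe sets correlated at 0.53 to 0.73, beside 0.28 for Dkk3 (1417312_at) with Sln (1420884_at) and 0.47 for Nr2f2 (1416160_at) with Sln. The other Nr2f2 probe sets correlated with Sln (1420884_at) at 0.24 (1416159_at) and 0.26 (1416158_at) on these arrays. With Sln (1420883_at), Nr2f2 stood at -0.39 (1416160_at), -0.32 (1416159_at) and -0.25 (1416158_at). The relation of Nr2f2 to Sln on these arrays thus depended on the probe sets taken.

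Probe sets of 1 gene did not always report the same pattern. For Sln, 1420884_at ranged over all arrays while 1420883_at stayed between -0.55 and 0.30 on the 34 lower arrays and stood above 0.30 on 9 of the other 10. Their correlation was 0.74 (Spearman 0.36) over 44 arrays and -0.17 over the 34. At its highest, on FVB/N IgG replicate 2, 1420883_at stood at 5.58 beside 8.82 for 1420884_at. On FVB/N FG-3149 replicate 8 the wide probe set read 4.65 and the narrow one -0.034. The narrow Sln probe set was closer to Stard10 (0.97 over 44 arrays) than to the other Sln probe set.

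Myl4 showed the same form. Its probe set 1457126_at stayed between -0.82 and 0.52 on the 34 lower arrays and reached 2.99 on FVB/N IgG replicate 2, where 1422580_at read 7.65. The pair correlated at 0.65 (Spearman 0.41) over 44 arrays and at -0.01 over the 34. On the arrays below 4 neither narrow probe set carried the ordering seen in the wide one.

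Dkk3 was the opposite case. Its probe sets 1417312_at and 1448669_at correlated at 0.99 over 44 arrays and 0.98 over the 34. The 3 Nr2f2 probe sets lay between, at 0.65 to 0.70 over 44 arrays and 0.45 to 0.56 over the 34. Nr2f2 also differed in direction between probe sets. In FVB/N IgG the median was 0.41 for 1416160_at but -0.33 for 1416159_at and -0.045 for 1416158_at. Which transcripts each probe set reads was not analysed here.

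**Figure D3:**
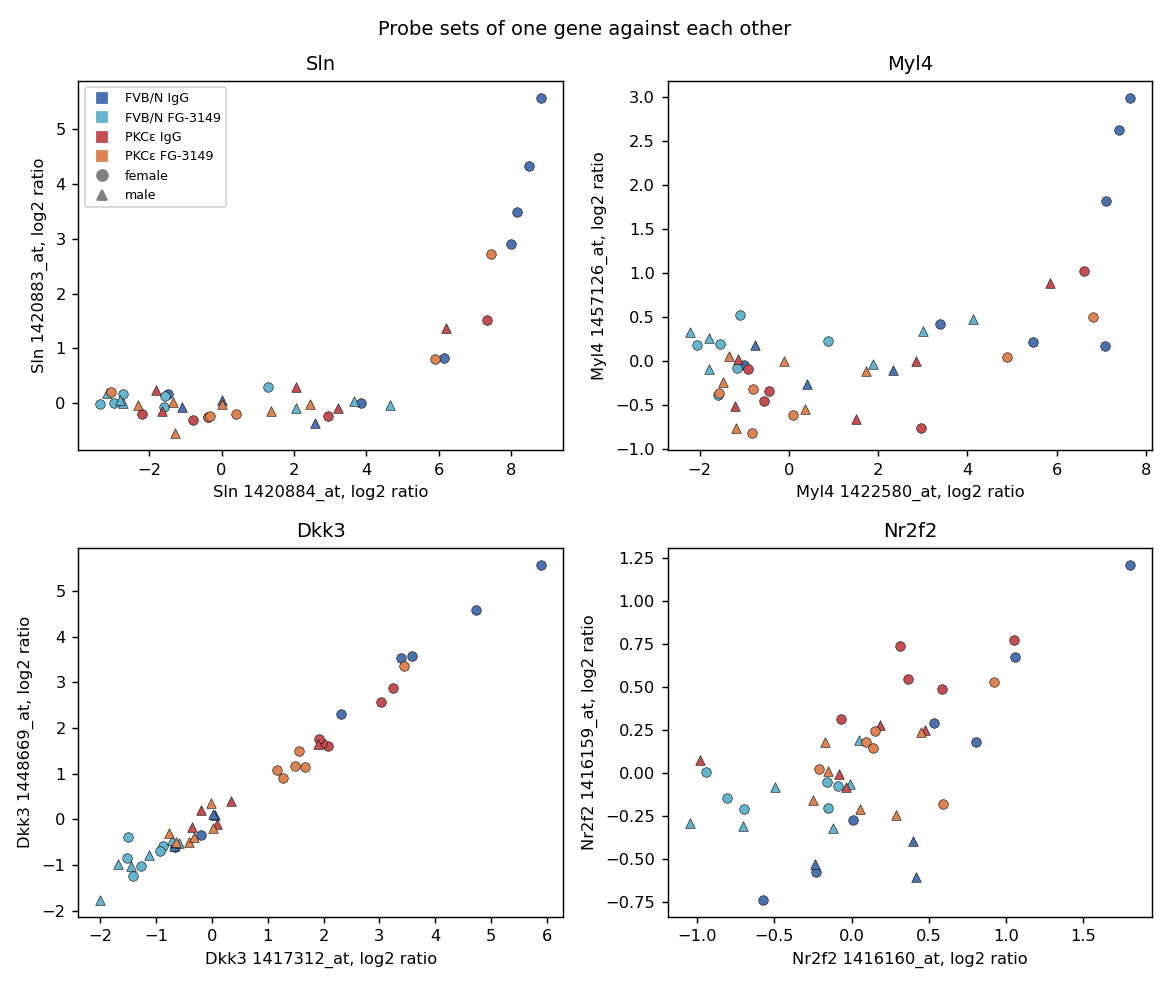
Log2 ratios of 2 probe sets of the same gene against each other for Sln, Myl4, Dkk3 and Nr2f2, 1 point per array, coloured by group with circles for females and triangles for males. For Sln and Myl4 the narrow probe set stays flat and then rises on the highest arrays, Dkk3 falls on a line, and Nr2f2 scatters.

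In FVB/N mice, arrays of the FG-3149 group were lower than those of the IgG group in most members. Sln (1420884_at) differed by -4.92 ± 1.41 (log2 difference, FG-3149 minus IgG, ± SE of the limma fit with a term for sex), Myl7 by -5.01 ± 1.40 and Myl4 (1422580_at) by -4.00 ± 1.17. Dkk3 differed by -2.77 ± 0.51 and -2.39 ± 0.49, Stard10 by -1.39 ± 0.42, Sln (1420883_at) by -1.51 ± 0.47 and Nr2f2 (1416160_at) by -0.78 ± 0.21. These 8 of 11 probe sets were called, all lower. Over all probe sets 8.35% were called and 4.22% were called lower. Because the members were chosen with their spread on these arrays known, the count of 8 is no test of the set. With females alone in the fit the differences were -7.81 ± 1.80 for Sln (1420884_at), -7.65 ± 1.84 for Myl7 and -6.40 ± 1.51 for Myl4 (1422580_at). These include FVB/N FG-3149 replicate 11, whose Sln (1420884_at) was 1.28 beside -3.34 to -1.56 in the other 5 females of its group. In males alone, with 3 arrays under IgG and 6 under FG-3149, they were -0.22 ± 1.86, -0.55 ± 1.80 and -0.13 ± 1.50, with 0.022 ± 0.20 for Stard10 and 0.15 ± 0.22 for Sln (1420883_at), both of which turned sign. Whether the antibody difference differed between the sexes was not tested. Myl4 (1457126_at) at -0.60 ± 0.29 and Nr2f2 (1416159_at and 1416158_at) at 0.0048 ± 0.14 and -0.19 ± 0.14 were not called with all arrays.

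This difference moved with the arrays of high atrial level. Without the 10 arrays above 4 no member was called between the antibody groups of FVB/N mice, although 4 of 11 had an unadjusted p under 0.05, and all probe sets called fell from 1889 to 405 (1.79%). Those arrays were picked by the level of the members, so for the members this is a description. They held 5 of the 10 FVB/N IgG arrays, among them 5 of its 7 females, and 1 of the 12 FVB/N FG-3149 arrays. In the fall of calls over all probe sets, the smaller groups and the loss of high levels cannot be told apart. Sln (1420884_at) then differed by -1.95 ± 1.11, Myl7 by -2.06 ± 1.07 and Myl4 by -1.50 ± 0.83. Dkk3 (1417312_at) differed by -1.17 ± 0.33 and Stard10 by 0.058 ± 0.12. Leaving out FVB/N IgG replicate 1, 3 or 4 alone left 5 members called, beside 6.67%, 6.42% and 7.09% of all probe sets. Leaving out replicate 2 left 4, beside 5.67%. The FVB/N groups carry separate ranges of mouse numbers, 420 to 443 for IgG and 338 to 349 for FG-3149, so anything those numbers track cannot be told apart from the antibody.

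In PKCε mice the antibody groups overlapped in every member, though how many of all probe sets did so is not given here. Limma called 0 of 11 members, with 0 at an unadjusted p under 0.05, beside 8.38% of all probe sets (1029 higher and 867 lower, or 783 and 989 with array scaling). The differences were -0.76 ± 1.40 for Sln (1420884_at), -0.82 ± 1.39 for Myl7, -1.001 ± 1.16 for Myl4 (1422580_at) and -0.70 ± 0.51 for Dkk3 (1417312_at). For Sln and Myl7 this size is within the SE, so no difference was detectable at this spread. The antibody effects of the lines were compared directly as well. Limma called 0 of 11 members (3.95% of all probe sets), with 7 at an unadjusted p under 0.05, and the difference was 4.17 ± 1.99 for Sln (1420884_at) and 2.07 ± 0.72 for Dkk3 (1417312_at). On the 34 lower arrays 0 members were called between the antibody groups of PKCε mice (4.18% of all probe sets), with 3 at an unadjusted p under 0.05, namely both Dkk3 probe sets and Nr2f2 (1416159_at). For the difference between the lines 1 was then called, Nr2f2 (1416159_at) at -0.59 ± 0.13, beside 1.06%. The 34 arrays were set by the level of the members, so for the members these calls are a description.

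Under IgG the transgene groups differed in 4 of 11 members, beside 40.9% of all probe sets called (4609 higher and 4656 lower, or 5100 and 3668 when each array was scaled to its own median). The members' share was thus near the background. Sln (1420883_at) was lower in PKCε mice by -1.34 ± 0.50, Myl4 (1457126_at) by -0.85 ± 0.30 and Stard10 by -1.47 ± 0.44, while Nr2f2 (1416159_at) was higher by 0.47 ± 0.15. Sln (1420884_at) at -2.66 ± 1.47 and Myl7 at -3.49 ± 1.46 were not called. Dkk3 differed by -0.11 ± 0.54 and -0.29 ± 0.51. Without the 10 arrays the called members were 3, all higher in PKCε mice: Dkk3 at 1.30 ± 0.35 and 1.17 ± 0.30, and Nr2f2 (1416159_at) at 0.79 ± 0.11, beside 35.3% of all probe sets called and 17.7% called higher. Those 10 arrays were picked by the level of the members and held 5 of 10 FVB/N IgG but 2 of 10 PKCε IgG arrays. For the members these calls are therefore a description. Without FVB/N IgG replicate 2 alone, 2 members were called, beside 43.3%. In males alone Sln (1420883_at) and Myl4 (1457126_at) did not keep their direction, at 0.46 and 0.0071.

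Under FG-3149, 4 of 11 members were called, all higher in PKCε mice, beside 45.2% of all probe sets called and 20.6% called higher (4664 higher and 5552 lower, or 5196 and 4229 with array scaling). They were Dkk3 at 1.96 ± 0.49 and 1.50 ± 0.46 and Nr2f2 at 0.59 ± 0.20 (1416160_at) and 0.39 ± 0.13 (1416158_at). Sln (1420884_at) at 1.51 ± 1.33 and Myl7 at 0.70 ± 1.32 were not. With the 10 arrays left out Dkk3 stood at 1.80 ± 0.27 and 1.34 ± 0.23, and 7 members were called, 5 higher and 2 lower, beside 42.6% of all probe sets. The lower ones were Stard10 at -0.39 ± 0.096 and Myl4 (1457126_at) at -0.52 ± 0.12. The arrays left out were picked by the level of the members, so for the members these calls are a description. The FVB/N groups and the PKCε groups each enter more than 1 of these comparisons, so the comparisons are not independent.

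**Figure D4:**
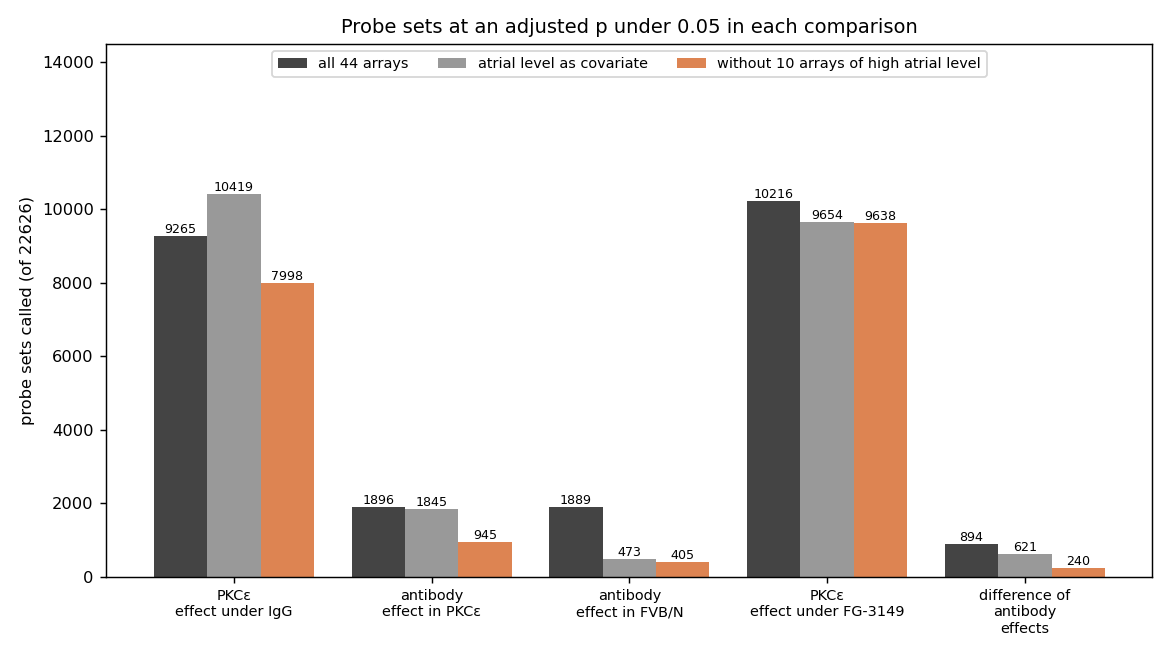
Number of probe sets called of 22626 (vertical axis, from 0) in each of the 5 comparisons (horizontal axis), with all 44 arrays, with the atrial level as a covariate, and without the 10 arrays above 4. The antibody comparison in FVB/N mice goes from 1889 to 473 and 405, and the transgene comparisons stay at or above 7998.

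Dkk3 values are given here by line and sex. In FVB/N FG-3149 mice Dkk3 (1417312_at) ran from -2.001 through -1.34 to -0.59, all below 0, with females at -1.52 to -0.89 and males at -2.001 to -0.59. In PKCε FG-3149 mice females ran from 1.16 to 3.44 and males from -0.76 to 0.0096. In PKCε IgG mice females ran from 1.91 to 3.25 and males from -0.36 to 1.90. At this probe set every female was above every male within each PKCε group, which 14.4% of all probe sets also showed in one direction or the other under IgG and 2.28% under FG-3149. At the other Dkk3 probe set (1448669_at) this held under FG-3149 but not under IgG, where the highest male (1.64) passed the lowest female (1.61). In FVB/N IgG mice females ran from -0.67 to 5.90 and males from -0.68 to 0.051, and they overlapped.

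Under FG-3149 all 6 PKCε females were above all 6 FVB/N females in both Dkk3 probe sets, a separation shown by 14.5% of all probe sets in females. Leaving out FVB/N FG-3149 replicate 11 cannot undo such a separation, so this is no check of it. Dkk3 (1417312_at) of that array was -1.52 beside -1.51 to -0.89 in the other 5 females. With a sex term shared by all groups, females exceeded males by 1.67 ± 0.37 and 1.49 ± 0.35 in Dkk3 and by 0.29 ± 0.10 in Nr2f2 (1416159_at). These were the 3 of 11 members called for sex, beside 14.9% of all probe sets. Without FVB/N FG-3149 replicate 11 the 3 were called again, at 1.73 ± 0.37, 1.53 ± 0.35 and 0.31 ± 0.10, beside 17.1%. The excess was not alike between groups. Mean Dkk3 (1417312_at) was -1.26 in both sexes of FVB/N FG-3149 mice. Female and male means were 2.72 and -0.20 in FVB/N IgG, 2.45 and 0.35 in PKCε IgG, and 1.77 and -0.36 in PKCε FG-3149. The transgene effect averaged over IgG and FG-3149, in females minus that in males, was 0.65 ± 0.68 for Dkk3 (1417312_at). Limma called 0 of 11 members for it (0.301% of all probe sets), with 0 at an unadjusted p under 0.05. This average joins unlike differences. The PKCε mean minus the FVB/N mean under IgG was -0.27 in females and 0.56 in males, and under FG-3149 it was 3.02 and 0.90. Whether the transgene effect differed by sex under either treatment alone was not tested. With females alone in the fit, 5 of 11 members were called between the antibody groups of FVB/N mice (2.85% of all probe sets). Females gave 4 between the lines under IgG (34.2%) and 2, both Dkk3, under FG-3149 (31.6%). Without FVB/N FG-3149 replicate 11 the females gave 5 between the antibody groups of FVB/N mice (1.03%) and 2 between the lines under FG-3149 (25.4%). With males alone the members called were 0 between the antibody groups of FVB/N mice (0.407%, limma, with 4 at an unadjusted p under 0.05), 1 between the lines under IgG (16.5%) and 2 under FG-3149 (21.3%). Dkk3 (1417312_at) was higher in PKCε mice under FG-3149 in females by 3.02 ± 0.77 and in males by 0.90 ± 0.31. PKCε females at an atrial level below 0 still had Dkk3 of 1.27 to 2.08, so high Dkk3 was seen without high Sln.

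**Figure D5:**
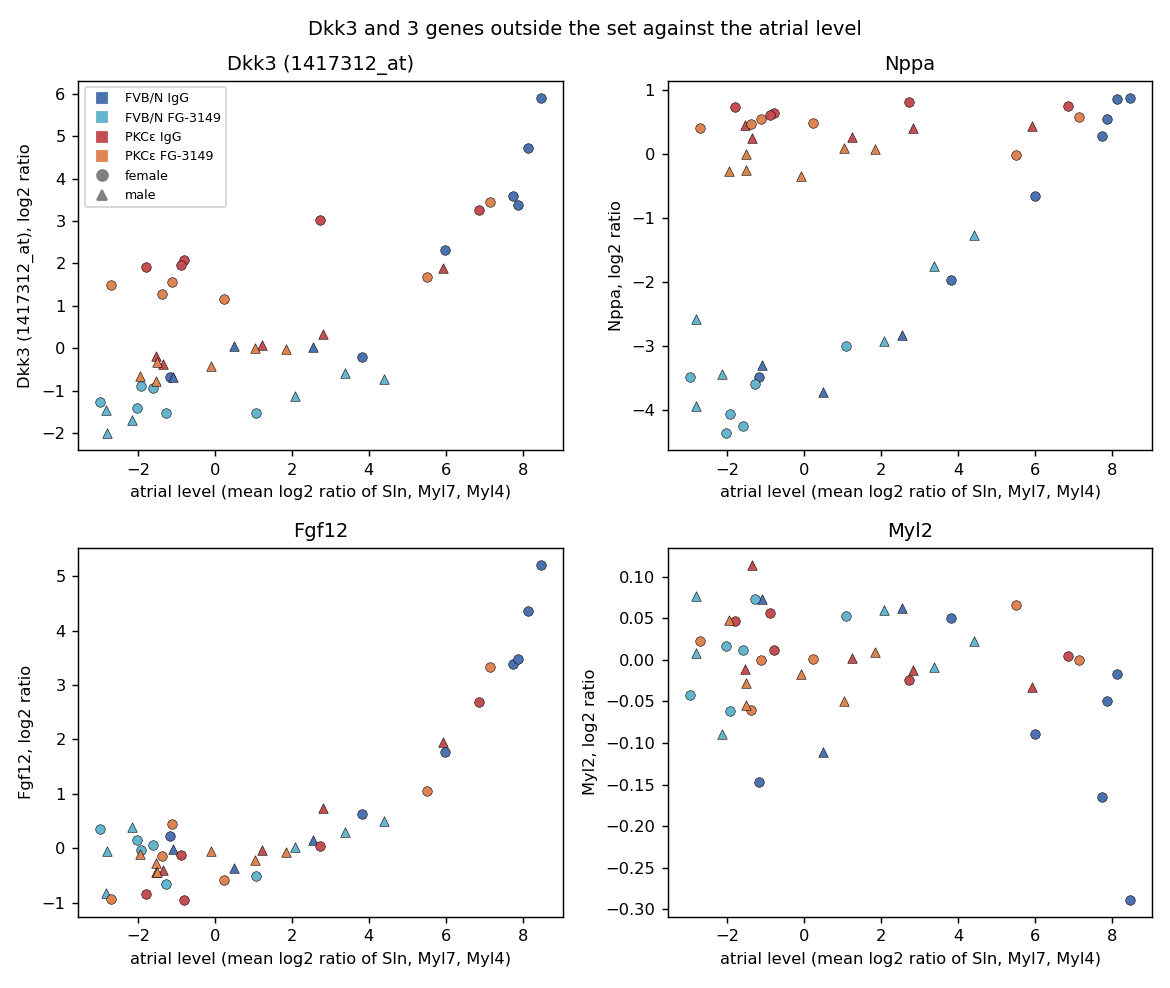
Log2 ratios of Dkk3, Nppa, Fgf12 and Myl2 (vertical axes) against the atrial level (horizontal axes), 1 point per array, coloured by group with circles for females and triangles for males. Nppa climbs with the atrial level in FVB/N IgG mice and stays between -0.33 and 0.82 in PKCε mice, and Fgf12 rises on the highest arrays of 3 groups.

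Genes outside the set were ranked by their correlation with the atrial level, group means subtracted, among 4065 probe sets with an SD of at least 0.3. The 10 highest genes were Fgf12 (0.81), Tmem163 (0.79), Procr (0.77), Gpm6a (0.76), Npr3 (0.74), Slc22a7 (0.74), Igfbp5 (0.74), Upk3b (0.73), Plet1 (0.73) and Aldh1b1 (0.73). Fgf12 encodes a fibroblast growth factor homologous factor that modulates sodium channels, and Npr3 the clearance receptor for natriuretic peptides. The 5 lowest were Abcb4 (-0.64), Pdzd3 (-0.62), Dync1li1 (-0.62), Ethe1 (-0.59) and Vac14 (-0.59). Of the 4065 probe sets 7.65% had a correlation above 0.5 and 0.59% below -0.5.

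Fgf12, Tmem163 and Procr were also the 3 most alike genes of Sln, Myl7 and Myl4 taken singly. Stard10 was most like Slc22a7 (0.96), Tbx5 (0.95) and Tmem163 (0.95). Dkk3 was most like Wls (0.91), Csrp2 (0.90) and Ptgfr (0.90), and Nr2f2 like Fmod (0.77), Unc13b (0.77) and Foxp1 (0.76). The members thus had 4 sets of nearest genes, with the light chains and Sln sharing theirs and Stard10 sharing Tmem163 with them.

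Of 13 other atrial genes listed, 12 were measured, and 5 of them correlated with the atrial level above 0.5. The median correlation of the list was 0.36, against -0.075 over all genes. Lists of other tissues had medians as high: 0.63 for mesothelium and epicardium, 0.41 for smooth muscle, 0.40 for the hepatic genes and 0.38 for adipocyte genes. Nppa, which encodes atrial natriuretic peptide and is a fetal gene that the diseased ventricle makes again, is given by line. In FVB/N IgG mice Nppa ran from -3.71 to 0.89 and correlated with the atrial level at 0.97 (Spearman 0.96). In FVB/N FG-3149 mice it ran from -4.36 to -1.27 with a Pearson correlation of 0.79 and a Spearman of 0.44. In PKCε mice its range was narrower, 0.25 to 0.82 under IgG and -0.33 to 0.58 under FG-3149, with correlations of 0.17 and 0.19. Nppa was higher in PKCε than in FVB/N mice under IgG by 1.97 ± 0.46 (limma, adjusted p = 0.00057), and by 3.58 ± 0.31 without the 10 arrays.

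Most of the other atrial genes were lower in PKCε mice under IgG. Of the 12, limma called 1 higher (Nppa) and 7 lower in PKCε mice, beside 20.4% of all probe sets called higher and 20.6% lower, with a median of -0.42 against -0.041 over all probe sets. Kcnj3 and Kcnj5, subunits of the acetylcholine-gated potassium channel of the atrium, differed by -1.28 ± 0.21 and -0.34 ± 0.073 (limma adjusted p = 3.1e-06 and 2.6e-04). Tbx5, a transcription factor of atrium and conduction system, differed by -0.97 ± 0.20 (adjusted p = 1.8e-04) and Kcnk3, a background potassium channel, by -0.50 ± 0.11 (3.5e-04). On the 34 lower arrays 2 were called higher and 4 lower, and Kcnj3 stood at -0.78 ± 0.12 and Tbx5 at -0.48 ± 0.089. Bmp10, a growth factor of the right atrium, was lower in PKCε mice by -0.55 ± 0.21 (limma adjusted p = 0.031). Its values reached 2.96 and 1.505 on FVB/N IgG replicates 2 and 3 and at most 0.40 on the other 42 arrays, and without the 10 arrays it differed by -0.077 ± 0.037 (adjusted p = 0.0995).

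Between the antibody groups of FVB/N mice 4 of the 12 other atrial genes were called, all lower, beside 4.22% of all probe sets, and 0 without the 10 arrays (0.906%). They were Nppa at -1.79 ± 0.44, Fgf12 at -1.77 ± 0.52, Pam at -0.70 ± 0.20 and Tbx5 at -0.64 ± 0.20 (limma adjusted p = 0.0066, 0.027, 0.018 and 0.033). The median of the list was -0.40, against 0.023 over all probe sets. Fgf12 differed by -0.18 ± 0.22 without those arrays, and Nppa by 0.63 ± 0.39 in males alone.

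Genes of the ventricular chamber did not mirror the atrial level closely. The 11 measured had correlations with it from -0.41 to 0.19. Myl2, the ventricular regulatory light chain, stayed between -0.29 and 0.11 on all 44 arrays, with its lowest value on FVB/N IgG replicate 2. Myl3 (1427769_x_at), the essential light chain, ran from -0.74 to 0.19 with its lowest value on the same array. Under IgG, limma called 1 of the 11 higher in PKCε mice, Myh7 (3.22 ± 0.13, adjusted p = 8.5e-22), and 4 lower, among them Fhl2 at -0.95 ± 0.10 (6.2e-10) and Pln at -0.41 ± 0.067 (3.6e-06). Over all probe sets 20.4% were called higher and 20.6% lower. Atp2a2 (1427251_at), the calcium pump that sarcolipin slows, differed by -0.49 ± 0.094 (5.1e-05). None of the 9 measured genes of the sarcoplasmic reticulum calcium list, which holds Pln and Atp2a2, correlated with the atrial level above 0.5.

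Markers of other tissues that can lie beside the ventricle moved with the atrial level in some lists. Of 8 mesothelium and epicardium genes, 5 correlated with it above 0.5: Upk3b (0.73), Bnc1 (0.67), Msln (0.66), Krt19 (0.64) and Krt8 (0.62). The mean log2 ratio of that list ran from -0.49 to 2.49 in FVB/N IgG, -0.62 to 0.49 in FVB/N FG-3149, -0.39 to 1.15 in PKCε IgG and -0.65 to 0.996 in PKCε FG-3149. Of 6 sinus node genes 2 did, Cacna2d2 (0.71) and Shox2 (0.51), of 8 smooth muscle genes 2, of 7 genes of valve and cartilage 2, and of 12 skeletal muscle genes 1. Of 7 lung epithelium, 3 red blood cell and 8 adipocyte genes, 0 did, and of 3 hepatic genes seen beside atrial markers earlier, Hamp did (0.60). Because values are ratios to each gene's median, a marker near 0 cannot be read as absent. The mean of the adipocyte genes ran from -0.57 to 3.30 in FVB/N IgG and from -0.74 to 0.997 in FVB/N FG-3149, and from -0.81 to 0.84 over the PKCε groups. In FVB/N mice 5 of 8 adipocyte genes and 1 of 8 mesothelium genes were called lower under the antibody, beside 4.22% of all probe sets. Without the 10 arrays 0 of either list were, beside 0.906%. The part of these tissues in the members' differences was not tested.

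A sign of RNA quality, the log2 difference of the 3′ and 5′ Gapdh control probe sets, correlated with the atrial level at 0.16 over 44 arrays and at 0.61 in FVB/N FG-3149 mice. Its group means were -0.035, -0.126, 0.297 and 0.037 in FVB/N IgG, FVB/N FG-3149, PKCε IgG and PKCε FG-3149. Its part in the members' differences was not tested.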

How the data were processed

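Left ventricular RNA was measured on Affymetrix 430A 2.0 arrays, from 250 ng RNA per mouse. The deposited values are linear ratios: per the labels' design text, the authors ran GCRMA in GeneSpring GX 7.3.1 and scaled every probe set to its median. Absolute level is lost in this step, signal over background cannot be known, and precision is limited by how many arrays there are. Log2 of each ratio was taken, with no filter. Of 22690 probe sets, 64 controls were left out, and of the rest 20380 had 1 gene symbol, 691 several and 1555 none.

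Groups were compared in 1 limma fit (3.58.1, R 4.3.3; lmFit and eBayes) over all 44 arrays with a term for sex and Benjamini-Hochberg adjustment over 22626 probe sets. All tests are two-sided. Mice are separate animals, 1 array each. The members and gene lists were chosen with earlier results of these data known. The named genes are every member, Nppa, Bmp10, Myl2, Myl3, Pln and Atp2a2, up to 4 called genes of lowest adjusted p per list in the transgene comparison under IgG, and the genes most correlated with the atrial level (10 highest, 5 lowest) or with each member (3). Genes outside that rule (Pam, Fgf12 in the antibody comparison, the list genes correlated above 0.5, and the sex-linked genes) were named after their values were seen. For list counts each gene stands at its probe set of largest SD. Alternatives tried were array scaling, a replicate block, no term for sex, a pseudocount of 0.1, an SD filter of 0.2, 1 probe set per gene, array weights, the atrial level as covariate, leaving out the 10 arrays above 4 or each array, and, added after seeing the data, females or males alone, and females without FVB/N FG-3149 replicate 11. The fit was tested on simulated data.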

Additional observations from a re-analysis of the deposited data

Results flagged for a closer look

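In 5 genes of the lists beside the members, the antibody difference in PKCε mice minus that in FVB/N mice was itself called by limma. They were 1 of 12 other atrial genes, 2 of 8 adipocyte, 1 of 8 smooth muscle and 1 of 3 hepatic genes. No gene of the other lists was called, and 3.95% of all probe sets were. The lists were written with earlier results of these data known, so these counts are a description. It was 2.35 ± 0.58 for Cyp2e1 (adjusted p = 0.013), 0.98 ± 0.28 for Kcnj3 (0.037), 2.51 ± 0.66 for Adipoq (0.020), 0.83 ± 0.24 for Myh11 (1448962_at, 0.036) and 2.45 ± 0.58 for Car3 (1460256_at, 0.0086). In all 5 the antibody groups of FVB/N mice differed downward (Adipoq by -2.25, Car3 by -2.36, Cyp2e1 by -1.72, Myh11 by -0.60 and Kcnj3 by -0.45, the last not called). None of the 5 was called between the antibody groups of PKCε mice. Without the 10 arrays above an atrial level of 4, none of the 5 was called (limma adjusted p = 0.25, 0.34, 0.29, 0.38 and 0.19 in the order given first). In the groups of 10, no member had an array set apart from the rest of its group by Dixon's test, and groups of 12 were not tested. Among the latter, PKCε FG-3149 replicate 9 read 2.06 for Stard10 and 2.72 for Sln (1420883_at). The next highest arrays of its group read 0.35 and 0.80. Dixon's test looks for 1 extreme array and can miss several that are high together. In atrial level 5 of 10 FVB/N IgG and 2 of 10 PKCε IgG arrays stood above 4, so the result does not show that no arrays stand apart.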

How the results depend on the processing

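Counts over all probe sets depended on how many were tested, on the sex of the mice and on the 10 arrays of high atrial level. With an SD filter of 0.2, which leaves 11107 probe sets, the transgene effect was called in 5789 under IgG and 5993 under FG-3149. With 1 probe set per gene (12393) the counts were 5235 (transgene under IgG), 1093 (antibody in PKCε), 1116 (antibody in FVB/N), 5830 (transgene under FG-3149) and 479 (difference of antibody effects), and the members called were 1 of 6 and 2 of 6 in the transgene comparisons under IgG and FG-3149. Males alone gave 3724, 76, 92, 4816 and 65 in the same order. Females alone gave 645 for the antibody in FVB/N and 186 for the difference. Without FVB/N FG-3149 replicate 11, females gave 1161 (antibody in PKCε), 233 (antibody in FVB/N), 5758 (transgene under FG-3149) and 133 (difference), with 5 members called for the antibody in FVB/N and 2 for the transgene under FG-3149. Without the 10 arrays the antibody counts were 945 in PKCε and 405 in FVB/N, and the difference 240. With the atrial level as a covariate the antibody in FVB/N gave 473.

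Of 11 members, males alone left 1 (transgene under IgG), 0 (antibody in FVB/N) and 2 (transgene under FG-3149) called, and females alone 5 in the antibody comparison of FVB/N and 2 in the transgene comparison under FG-3149. Array weights left 2 in the transgene comparison under IgG, where they called 9576 of all 22626 probe sets. Without the 10 arrays 0 were called for the antibody in FVB/N, 7 for the transgene under FG-3149 and 1 for the difference of antibody effects. Called differences turned sign in males alone for Sln (1420883_at, 0.46) and Myl4 (1457126_at, 0.0071) between the lines under IgG, and for Sln (1420883_at, 0.15) and Stard10 (0.022) between the antibody groups of FVB/N. They also turned sign there without the 10 arrays, at 0.11 and 0.058. The cause of these changes was not tested.

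Leaving out each array in turn gave 8288 to 10340, 1320 to 2080, 1283 to 2457, 8987 to 10873 and 660 to 962 probe sets called in the order above, and 2 to 5, 0 to 0, 4 to 8, 4 to 4 and 0 to 1 members. The count of 2 came without FVB/N IgG replicate 2, and the difference called 1 member without FVB/N IgG replicate 5 or 10. Leaving out FVB/N FG-3149 replicate 11 gave the 8987. The median correlation of the members was 0.743 with group means kept, 0.732 with the pseudocount, 0.261 without the 10 arrays and 0.679 to 0.726 leaving out 1 array.

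Replicate numbers do not pair the mice: over 62 pairs of the same number in different groups the median correlation of deviations was -0.071. With the replicate block 9014, 1357, 1364, 9795 and 777 probe sets and 4, 0, 5, 4 and 0 members were called.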
